A study of Mus musculus with 7 samples.

Results

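The genes examined were 46 genes of AP-1 and related basic leucine zipper (bZIP) transcription factors, of 21924 protein-coding gene symbols in the mouse annotation. They were chosen by a readout of these same data, because sites of such factors were frequent in peaks of 5-hydroxymethylcytosine (5hmC), so the counts of binding strings below are a description. A peak was assigned to a gene when it lay in the gene or within 50 kb of it on GRCm38, or when the authors had given it the gene's symbol. By this rule 57 of the 8949 peaks in 4 lists were at these genes.

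bZIP proteins bind DNA as dimers, which a zipper of leucines holds together, and the choice of partner sets which sequence is bound. Dimers of Fos and Jun proteins form AP-1, which answers growth factor, cytokine and mechanical signals, while the relatives cover cAMP signalling (CREB), stress of the endoplasmic reticulum (ATF6, XBP1), defence against oxidants (the NFE2L proteins with small MAF partners) and cell differentiation (C/EBP). In cartilage, Fos and Jun family members, ATF4, C/EBP-beta and MAF are known for roles in chondrocyte maturation. The mark 5hmC is made when TET enzymes oxidise 5-methylcytosine (5mC), and it is known to collect at active enhancers and gene bodies.

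The data came from ATDC5, an established mouse line of chondroprogenitor cells, which becomes cartilage-like in medium with an insulin, transferrin and selenite supplement. The 6 enriched samples without genetic change gave 4 peak lists, namely 5mC at day 0 (1 sample) and day 10 (1 sample), and 5hmC at day 5 and day 10 (2 merged samples each). Day 0 cells are labelled as chondroprogenitors, and day 5 and day 10 cells had been in the differentiation medium for these days by the labels. The study's text gives days and stages that differ from the labels used here, and by them the lists labelled day 10 of each mark may belong to different stages. The threshold for a listed region was 3-fold enrichment for 5mC and 10-fold for 5hmC. What the samples were compared with in the peak calling was not given in the sources used here, and the study's methods describe it as a search for gain or loss between progenitors and chondrocytes. A peak is therefore a listed region, without a height, and a gene without a peak cannot be read as a gene without the mark. With 1 list for each mark and day there was no replicate spread and no test, and each Wilson 95% interval given covers only the counting error of peaks.

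A 5hmC peak of either day was at 23 of the 46 genes, against 27.0% of all protein-coding genes. Peaks of both days were at 5 genes (10.9%), Creb5, Atf4, Batf3, Mafa and Nfe2l1, against 7.58% of all genes. Peaks of day 5 alone were at 10 genes (21.7%, against 6.47%) and peaks of day 10 alone at 8 (17.4%, against 13.0%). Another 7 genes had 5mC peaks alone (15.2%, against 10%), and 16 had no peak in any list (34.8%, against 62.9%). The best known AP-1 genes were among those 16: neither Fos nor Jun nor Jund had a peak of any list within 50 kb, while Fosb, Fosl1 and Fosl2 each had 1 5hmC peak.

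**Figure D1:**
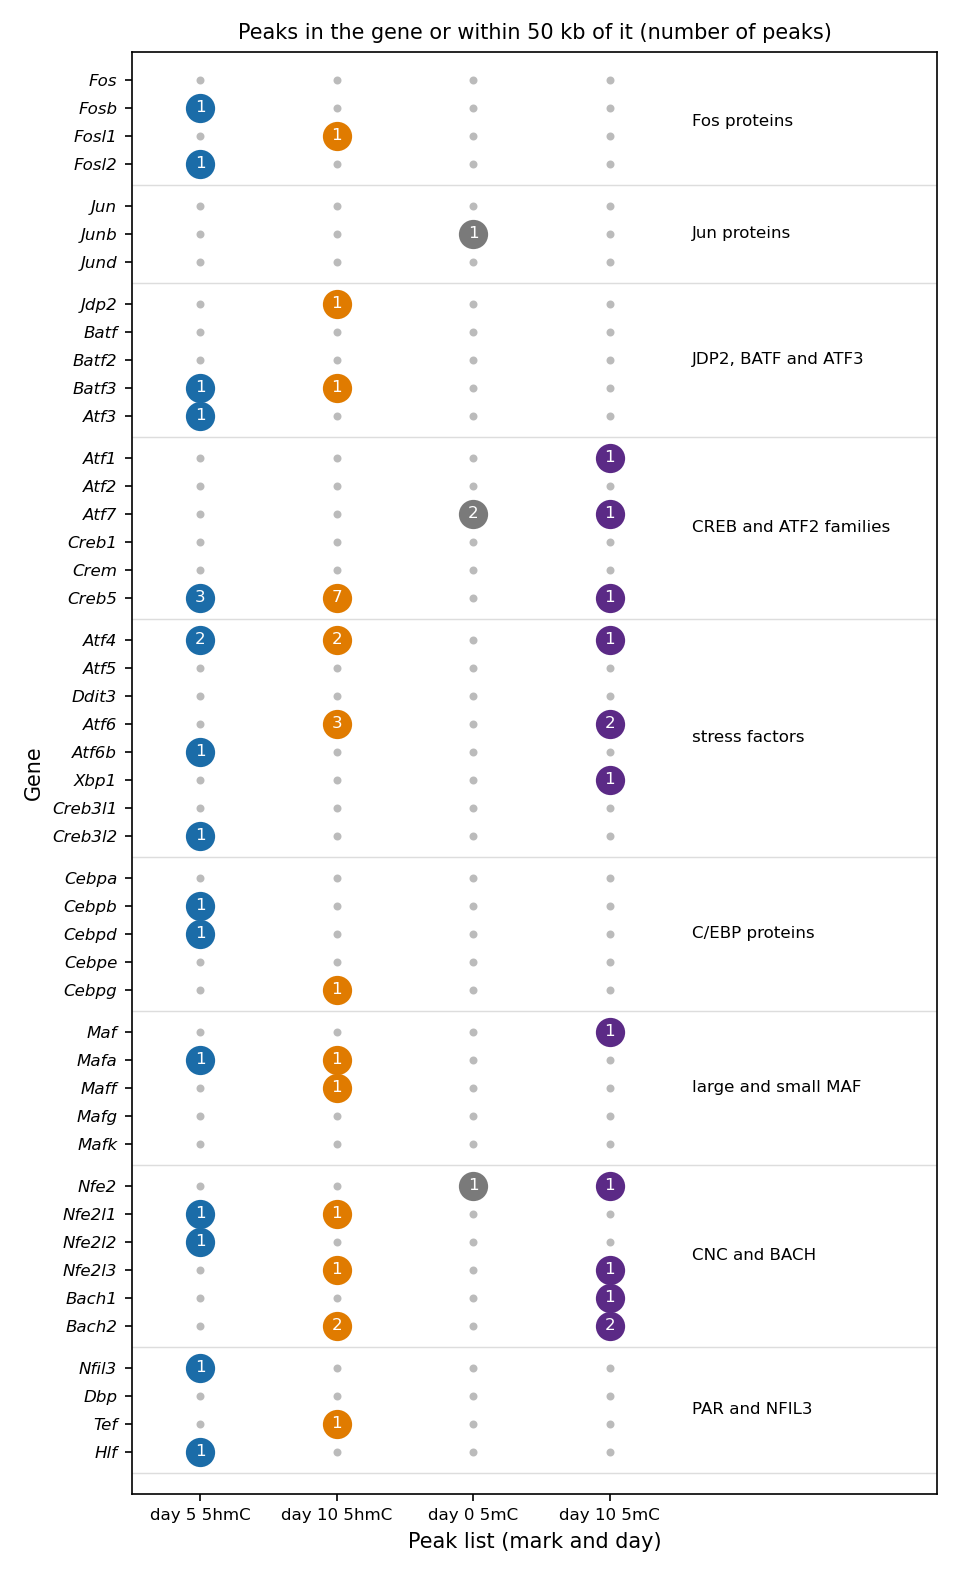
Number of peaks (digit in each circle) of each list in or within 50 kb of each of the 46 genes, which are grouped by family; small grey dots mark 0 peaks. Creb5 carried 3 day 5 and 7 day 10 5hmC peaks, and no Jun gene carried any 5hmC peak.

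The AP-1 string TGACTCA, searched on both strands, was in 6 of the 17 day 5 peaks, and 4 of these 6 lay in a gene of the set, at Creb3l2, Creb5, Fosl2 and Hlf. The stretches around the strings follow, from GRCm38, with the AP-1 string in capitals.
Creb3l2, first string, chr6:37370724-37370850, plus strand: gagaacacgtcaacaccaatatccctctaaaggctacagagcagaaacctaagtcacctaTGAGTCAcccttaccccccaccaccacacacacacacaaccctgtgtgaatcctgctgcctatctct
Creb3l2, next string, chr6:37370909-37371035, plus strand: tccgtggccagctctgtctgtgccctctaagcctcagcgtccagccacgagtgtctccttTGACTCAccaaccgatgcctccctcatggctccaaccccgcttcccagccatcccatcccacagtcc
Creb5, chr6:53498003-53498161, plus strand: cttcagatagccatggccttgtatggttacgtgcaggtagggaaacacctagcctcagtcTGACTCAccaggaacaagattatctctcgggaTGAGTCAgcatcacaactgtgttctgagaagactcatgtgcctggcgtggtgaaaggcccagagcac
Fosl2, chr5:32146390-32146516, plus strand: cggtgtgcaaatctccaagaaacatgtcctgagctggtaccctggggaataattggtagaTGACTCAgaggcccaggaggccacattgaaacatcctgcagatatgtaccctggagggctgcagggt
Hlf, chr11:90352809-90352935, plus strand: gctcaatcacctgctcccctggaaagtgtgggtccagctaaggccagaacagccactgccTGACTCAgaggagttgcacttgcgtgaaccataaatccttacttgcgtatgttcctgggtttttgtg
Creb3l2, which encodes the membrane-bound factor BBF2H7 of the secretory pathway, held 2 strings in an intronic peak from 37370263 to 37371151. Creb5, a relative of ATF2 known for its role in articular cartilage, held 2 strings on opposite strands, centred -6 and 26 bp from the midpoint of an intronic peak. In Fosl2, which encodes the AP-1 protein FRA2, the string lay 78 bp before the midpoint of the peak (-78 bp), and in Hlf, a PAR factor of the circadian output, it lay 155 bp after it. The other 2 peaks with the string lay 35.4 kb upstream and 45.4 kb downstream of Atf4, with 1 and 2 strings.

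The core of the antioxidant response element, TGACNNNGC, to which NFE2L and small MAF dimers bind, was in 8 of the 17 day 5 peaks. It has 3 free positions and is frequent by itself, as it was in 34.2% of the other day 5 peaks. In the promoter window from 250 bp before to 50 bp after their start, 14.0% of 27025 genes hold it. That window is narrower than the day 5 peaks, so its share is not to be set against theirs. The stretches shown are the part of the Nfe2l2 promoter under a peak (RefSeq, GRCm38.p6) and a part of 1 of the 2 day 5 peaks of Creb5 that hold a day 10 peak, with the core in capitals. The part shown lies outside that day 10 peak. These are a selection: the other cores in genes of the set, under the peaks of Fosl2 and Hlf and elsewhere in Creb5, are not printed.
Nfe2l2 promoter, chr2:75704751-75704913, minus strand: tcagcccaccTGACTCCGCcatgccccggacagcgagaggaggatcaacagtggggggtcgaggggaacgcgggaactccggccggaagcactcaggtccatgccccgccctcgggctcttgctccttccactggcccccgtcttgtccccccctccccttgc
Creb5, wide day 5 peak, chr6:53337127-53337255, plus strand: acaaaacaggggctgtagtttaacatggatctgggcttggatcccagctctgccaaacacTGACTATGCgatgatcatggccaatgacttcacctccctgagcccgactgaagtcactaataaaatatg
Nfe2l2 encodes NRF2, the main activator of this element. Its day 5 peak, chr2:75704751-75705828, began 110 bp upstream of the annotated gene start and covered 163 bp of the RefSeq promoter.

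The day 10 5hmC peaks were narrow, so that whole peaks can be read. The 3 shown lie at the Mafa promoter, in an intron of Creb5 inside a day 5 peak, and in an intron of Jdp2. Capitals mark the CpG sites, where both marks are known to sit in differentiated cells.
Mafa, chr15:75748947-75749079, plus strand: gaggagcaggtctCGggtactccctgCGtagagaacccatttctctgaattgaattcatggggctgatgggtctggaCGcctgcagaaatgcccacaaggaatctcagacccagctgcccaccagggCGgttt
Creb5, chr6:53384900-53385033, plus strand: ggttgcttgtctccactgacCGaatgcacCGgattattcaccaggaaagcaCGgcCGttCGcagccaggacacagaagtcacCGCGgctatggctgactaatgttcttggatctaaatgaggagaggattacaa
Jdp2, chr12:85629728-85629858, plus strand: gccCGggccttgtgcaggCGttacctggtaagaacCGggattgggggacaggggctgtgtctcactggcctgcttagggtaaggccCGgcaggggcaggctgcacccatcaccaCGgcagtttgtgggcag
These peaks held 4, 7 and 5 CpG sites. The day 10 peak at the start of Tef lies over untranslated exon sequence, the one upstream of Maff over that of Pla2g6, and the day 5 peak of Fosb over such sequence apart from 321 coding bp of its 995, and their bases are not shown.

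The share of the genes with a peak was set beside that of all protein-coding genes in each list. At day 5, 15 of the 46 genes (32.6%) had a 5hmC peak, against 14.0% of all genes, and 5 genes (10.9%) had one in the gene itself, against 4.59%. At day 10, 13 genes (28.3%) had a 5hmC peak, against 20.6%, and 5 (10.9%) in the gene itself, against 7.03%. Within 50 kb the difference from the background in percentage points was wider on day 5 than on day 10. Within 100 kb that order was turned, with 41.3% against 22.4% on day 5 and 52.2% against 31.1% on day 10. As a multiple of the background, the day 5 share stayed the larger in both windows, so the order depends on the measure. The difference between the days was not tested. The 17 day 5 peaks at these genes were 0.826% of that list (Wilson interval 0.516 to 1.32), and the 23 day 10 peaks were 0.552% (0.368 to 0.828). The windows of the 46 genes covered 6.42 Mb and held 2.65 day 5 and 3.58 day 10 peaks per Mb, against 1.02 and 1.99 in the windows of all genes. Without Creb5, chosen for leaving out after its peaks were seen, the windows held 2.37 and 2.71 peaks per Mb.

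Longer genes had a peak more often, and these genes were short, with a median of 12.5 kb (1.5 to 413 kb) against 17.4 kb for all genes. Among genes under 10 kb, 6 of 18 (33.3%) had a day 5 peak, against 9.43% of all genes of that length. From 10 to 50 kb it was 6 of 19 (31.6%) against 13.8%, and over 50 kb 3 of 9 (33.3%) against 21.6%. At day 10 the shares were 16.7%, 36.8% and 33.3%, against 13.8%, 19.1% and 33.9%. The day 5 share was above the background in each class, by most in short genes. At day 10 it was near the background in the short and in the long class. With 18, 19 and 9 genes in the classes, these differences rest on few genes, over 50 kb on 3, and were not tested.

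**Figure D2:**
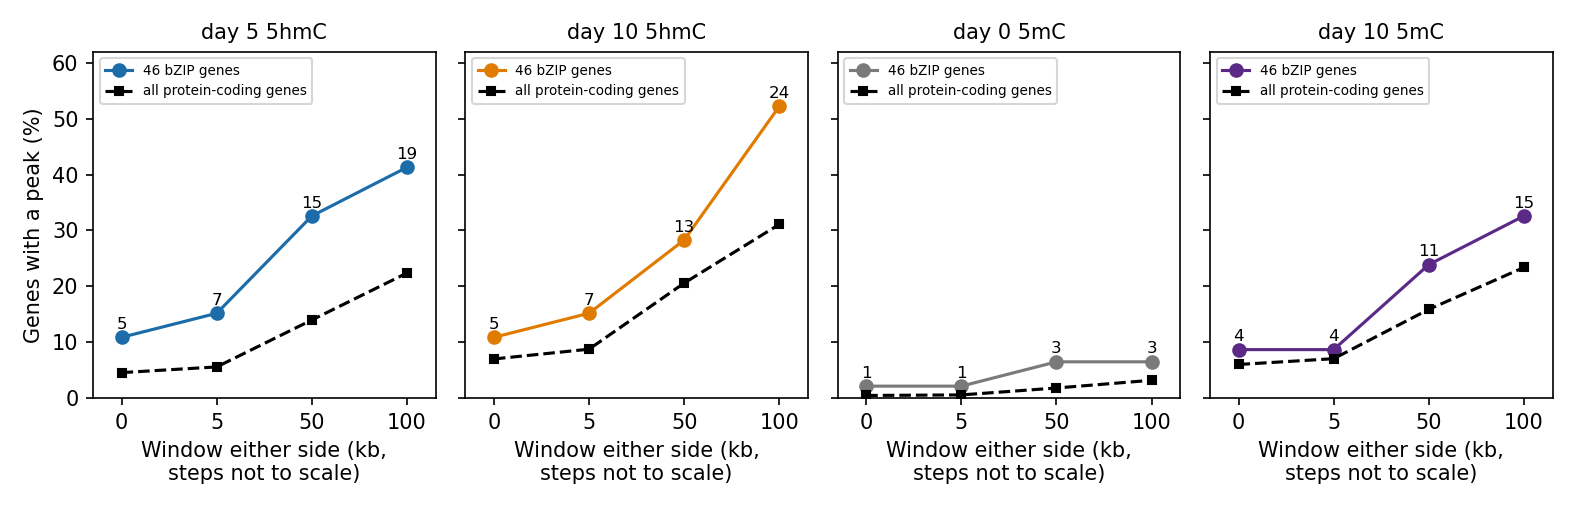
Share of genes with a peak (y axis, %) when 0, 5, 50 or 100 kb on either side of the gene were counted (x axis, steps not to scale), for the 46 genes (coloured, with the number of genes) and all 21924 protein-coding genes (black, dashed). At 50 kb the day 5 5hmC list gave 15 genes (background 14.0%) and the day 10 list 13 (20.6%), and at 100 kb it was 19 (22.4%) and 24 (31.1%).

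In the Fos group, 3 of 4 genes had a 5hmC peak and none a 5mC peak, against 27.0% and 17.4% of all genes. The same shares apply to the groups below, and with so few genes in a group none was tested against them. The Fosl2 peak, chr5:32146056-32147007, lay 10.7 kb into the gene over 183 bp of coding sequence and over the start of 1 of its annotated transcripts. The Fosb peak, chr7:19306875-19307869, lay over exon sequence along its whole length and held 26 CpG sites. Both belonged to day 5, and the nearest day 10 5hmC peaks were 92.3 kb from Fosl2 and 2720 kb from Fosb. Fosl1, which encodes FRA1, had a day 10 peak 16.1 kb upstream, chr19:5431298-5431402, listed under the symbol Drap1. Fos itself lay 152 kb from the nearest 5hmC peak. It is on chromosome 12, which was sparse in all lists, with 0.291 day 5 peaks per Mb against a median of 0.818 over the autosomes, and 0.674 day 10 peaks per Mb against 1.71. Chromosome 7, with Fosb, Atf5, Cebpa, Cebpg and Dbp, had 0.406 and 0.942 peaks per Mb, and chromosome 18, with Crem, 0.397 and 0.816. The part of this sparseness in the empty genes was not tested.

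The Jun genes, whose proteins are the obligate partners of Fos, had no 5hmC peak. With 3 genes, a share like the 27.0% of all genes could not be told from 0. The nearest 5hmC peaks lay 92.4 kb from Jund, 198 kb from Junb and 585 kb from Jun, the farthest of the set. Junb had 1 day 0 5mC peak 47.5 kb downstream, chr8:84926279-84927016, inside the gene Mast1 and with 85.9% of its bases marked as repeat.

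Of the 5 genes of JDP2, BATF and ATF3, which bind Jun or AP-1 sites and often dampen AP-1, 3 had a 5hmC peak. Jdp2 had a day 10 peak in an intron, the one printed above, 30.8 kb from its start. Batf3 and Atf3 are neighbours and share 1 day 5 peak, chr1:191140883-191141917, which lies between them at 31.9 kb from Batf3 and 28.4 kb from Atf3, so this peak counts for both genes but once among the 17. Batf3 also had a day 10 peak 17.7 kb upstream, in the gene Nsl1. Batf, 56.8 kb from a day 10 peak, lay just outside the window, and Batf2 lay 279 kb from the nearest 5hmC peak.

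Creb5 carried most peaks of any gene in the set. All 3 day 5 and all 7 day 10 5hmC peaks were intronic, along a gene of 413 kb. The day 5 peaks lay 50.3, 97.6 and 211 kb from the start. The day 10 peaks lay 50.5, 65.2, 97.7, 129, 250, 262 and 366 kb from it. The day 10 peak from 53337751 to 53337889 lay inside the day 5 peak from 53337012 to 53338113, and that from 53384900 to 53385033 inside the one from 53384476 to 53385344, so 2 sites were listed on both days. The third day 5 peak, the one with the AP-1 pair, had no day 10 peak over it. Of these 10 peaks, 1 was listed under the symbol Creb5 and 5 under 9430076C15Rik. The other 5 genes of the CREB and ATF2 families, the cAMP-responsive Creb1, Crem and Atf1 and the kinase-responsive Atf2 and Atf7, had no 5hmC peak. Their nearest ones lay between 59.5 kb (Atf2) and 256 kb (Crem).

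Among the 8 stress factor genes, 4 had a 5hmC peak. Atf4 encodes the effector of the integrated stress response and is needed for bone matrix formation. It had 2 peaks on each day, all outside the gene of 2.36 kb. The day 10 peak chr15:80219201-80219344 lay inside the day 5 peak chr15:80218915-80219812, 35.8 kb upstream. The other day 10 peak, 46.5 kb upstream, lay in Mgat3, and the other day 5 peak in Cacna1i. Atf6, an endoplasmic reticulum membrane factor freed by stress, had 3 day 10 peaks, of which 1 was intronic and 2 lay 2.73 and 2.88 kb downstream, separated by 10 bp. Atf6b had a day 5 peak 30.9 kb downstream in Tnxb, and Creb3l2 had the intronic day 5 peak printed above. Ddit3, which encodes the stress factor CHOP, lay 327 kb from the nearest 5hmC peak. Atf5 lay 114 kb away, Creb3l1 111 kb and Xbp1 98.6 kb.

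Of the 5 C/EBP genes, 3 had 1 5hmC peak each, none in the gene. Cebpb and Cebpd, induced early in differentiation and inflammation, had day 5 peaks 17.7 kb downstream and 19.6 kb upstream. Cebpg, whose protein pairs with ATF4 and other C/EBP proteins, had a day 10 peak 3.38 kb downstream, in Pepd. The same peak lay 76.2 kb from Cebpa, outside its window. Cebpe, a factor of granulocytes, was 65.5 kb from a day 5 peak.

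Mafa, a large MAF factor best known from pancreatic beta cells, had the one promoter region in the set with a peak on both days. The day 10 peak, chr15:75748947-75749079, lay inside the day 5 peak, chr15:75748476-75749288, which began 248 bp upstream of the gene and held 30 CpG sites. Maff, 1 of 3 genes of small MAF proteins, which lack an activation domain and lend DNA binding to NFE2L proteins, had a day 10 peak 23.2 kb upstream in Pla2g6. Mafg, Mafk and Maf had no 5hmC peak.

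In the CNC and BACH group, 4 of 6 genes had a 5hmC peak, against 27.0% of all genes. All 6 had a peak of some list, while 62.9% of all genes had none. The promoter peak of Nfe2l2 at day 5 held 48 CpG sites, 4.45 per 100 bp, the densest of the 17, and the nearest day 10 5hmC peak was 269 kb away. Nfe2l1, known for restoring proteasome genes, had a day 5 peak 30029 bp upstream in Copz2 and a day 10 peak 28.5 kb downstream. Nfe2l3 had a day 10 peak 36.4 kb downstream. Bach2, a repressor best known from lymphocytes, had 2 intronic day 10 peaks, 143 and 159 kb from its start. The related repressor gene Bach1 and the blood factor gene Nfe2 had 5mC peaks alone.

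In the PAR and NFIL3 group, known from clock output genes, 3 of 4 genes had a 5hmC peak. Tef had a day 10 peak across its start, chr15:81802386-81802532, centred 38 bp into the gene. Hlf had the intronic day 5 peak printed above, and Nfil3, the repressor of the group, a day 5 peak 7.79 kb upstream. Dbp lay just outside the window, 55.4 kb from a day 5 peak. Over all 23 genes without a 5hmC peak, the nearest lay 55.4 to 585 kb away with a median of 123 kb, and for 14 of them it was over 100 kb.

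**Figure D3:**
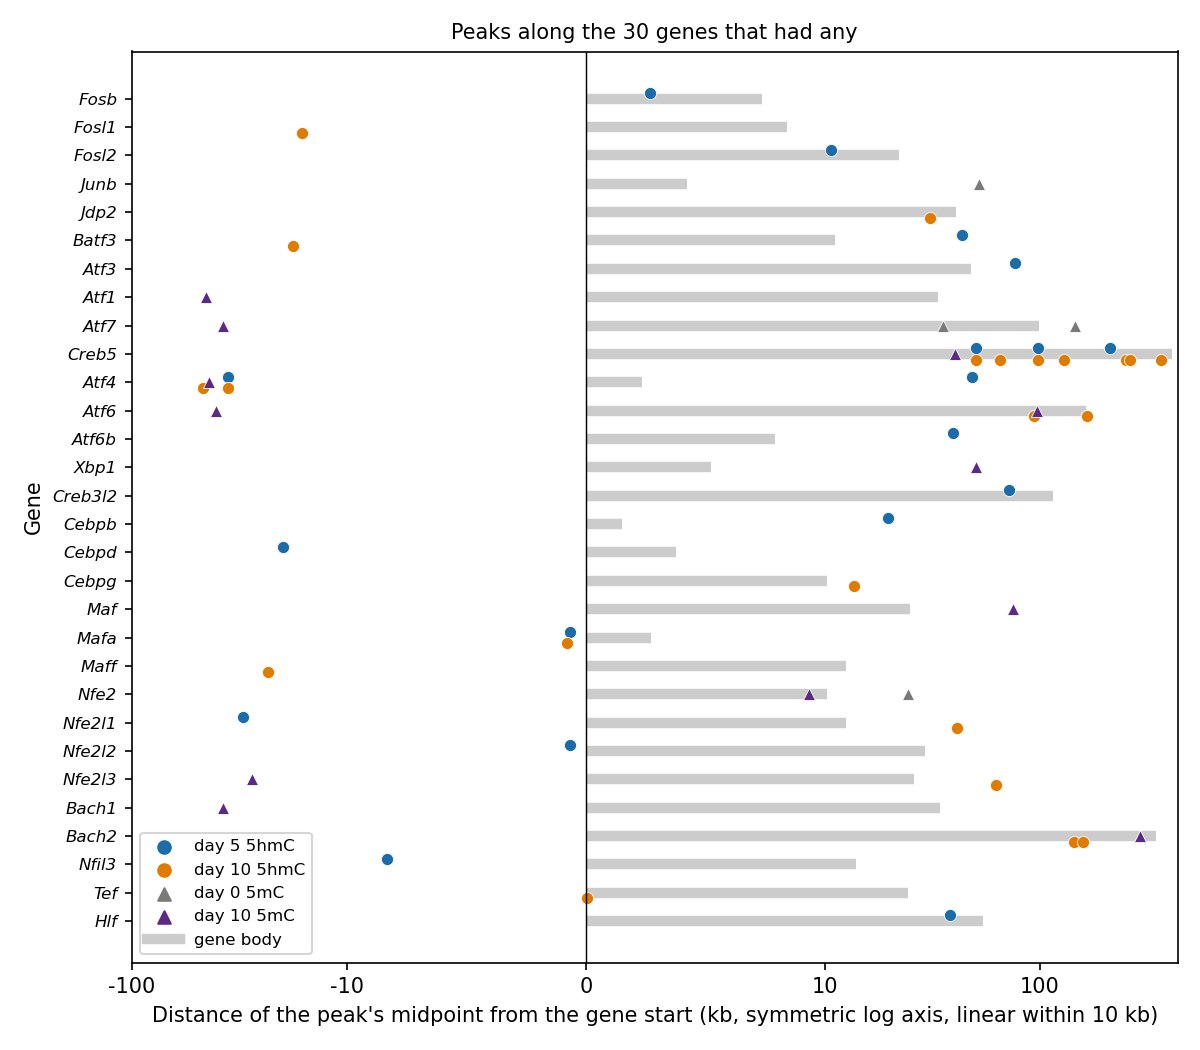
Distance of each peak's midpoint from the start of its gene (x axis, kb, symmetric log scale, linear within 10 kb, positive into the gene) for the 30 genes with a peak; circles are 5hmC (day 5 drawn slightly above and day 10 slightly below the line of the gene), triangles 5mC and grey bars gene bodies. Peaks near a start are seen at Mafa (both days), Nfe2l2 (day 5) and Tef (day 10), and the peaks of Creb5 spread along its body.

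By position, 7 of the 17 day 5 peaks lay in a gene of the set, 2 over coding exons and 5 in introns, and 2 in the 5000 bp before a start. Of the 23 day 10 peaks, 12 lay in a gene of the set, 11 in introns and 1 over the untranslated first exon of Tef, and 1 in the 5000 bp before a start. No day 10 peak lay over coding sequence of the set. The rest were upstream (4 and 5) or downstream (4 and 5). No share over all peaks stands beside these positions, so they describe the set and cannot be read as particular to it. An overlap with a day 10 peak was seen for 4 day 5 peaks of the set (23.5% of 17, 9.56 to 47.3), and for 29.6% of the day 5 peaks elsewhere. In the other direction it was seen for 4 day 10 peaks (17.4% of 23, 6.98 to 37.1), and for 17.0% of those elsewhere. The intervals contain the shares of the other peaks. These sites were at Creb5, Atf4 and Mafa, and in each the day 10 peak lay wholly inside the wider day 5 peak. At Batf3 and Nfe2l1, by contrast, the peaks of the days lay 60761 and 71124 bp apart. A gene with peaks on both days thus did not always have the same site listed, which does not show that the mark was lost.

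The AP-1 string was in 6 of the 17 day 5 peaks (35.3%, Wilson interval 17.3 to 58.7), against 43.2% of the other day 5 peaks. In flanks of equal width, 2000 bp from the peaks, it was in 20.6% and 14.1%, so the interval for the set contains the shares of both its flanks and the other peaks. At day 10 it was in 0 of 23 peaks, which allows a share of up to 13.0%, against 8.02% of the other day 10 peaks, so a share like theirs could not be told from 0. Day 10 peaks at the set were 105 to 209 bp wide and day 5 peaks 459 to 1102 bp, and the part of width in these counts was not tested. The antioxidant core was in 47.1% of the day 5 peaks (26.2 to 69.0), against 34.2% of the others. In the flanks of both it was in 26.5% and 24.4%. It was in 0 of the 23 day 10 peaks, against 7.73% of the others, a share that could not be told from 0. Under the other mark the core was in 7 of the 13 day 10 5mC peaks of the set (53.8%, 29.1 to 76.8). The other day 10 5mC peaks held it in 29.8%, and the flanks of both in 19.2% and 28.4%. The AP-1 string was in 3 of the same 13 peaks (23.1%, 8.18 to 50.3), against 13.4% of the others. The flanks of both held it in 26.9% and 16.9%. At day 0 it was in 1 of the 4 5mC peaks, against 4.97% of the others. The 5 other strings were in none of the 17 or 23 5hmC peaks, which allows up to 17.6% and 13.0%. They were the cAMP element TGACGTCA, the C/EBP string TTGCGCAA, the C/EBP and ATF composite TGATGCAA, the PAR strings TTACGTAA and TTATGTAA, and the unfolded protein string TGACGTGG. Each was in 0.147% to 2.65% of the other day 5 peaks and 0.0241% to 0.724% of the other day 10 peaks. Shares like these could not be told from 0 here. In the day 10 5mC list, the unfolded protein string was in 2 of the 13 peaks, at Bach1 and Bach2. That is 15.4% (4.33 to 42.2), against 2.55% of the others. A PAR string was in 1 of the 13, at Atf6 (7.69%, 1.37 to 33.3), against 3.73% of the others. These counts are small and were not tested. The strings overlap in part, since TGACTCA and TGACNNNGC share their first 4 bases.

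Promoters of the set were searched for the same strings, whether or not a peak lay there. RefSeq promoters, from 250 bp before to 50 bp after a start, were matched for 36 of the 46 genes. The AP-1 string was in 2 (5.56%, Creb5 and Ddit3), against 5.95% of all 27025 genes. The cAMP element was in 3 (8.33%, Creb5, Hlf and Maff), against 2.03%, and the antioxidant core in 7 (19.4%), Nfe2l2 among them, against 14.0%. The C/EBP and ATF composite was in Atf3 and Jdp2 (5.56%, against 1.03%). Jdp2 also held a PAR string (2.78%, against 1.23%), and Nfe2l1 the unfolded protein string (2.78%, against 0.714%). No promoter of the set held the C/EBP string, against 0.207% of all. These shares rest on few genes and were not tested. The 36 genes had 47 promoters and the 27025 genes had 32851, and the part of this in the shares was not tested.

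The day 5 peaks of the genes had a median of 1.93 CpG sites per 100 bp (1.15 to 4.45) against 1.61 for the other day 5 peaks, and the 2 highest values were those at the promoters of Nfe2l2 and Mafa. Day 10 peaks had a median of 1.56 (0 to 5.22), against 1.8. The peak of 7 sites in Creb5 was the densest, and another Creb5 peak, chr6:53537642-53537820, held no CpG. No test was made, since peaks of 1 list share their samples.

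**Figure D4:**
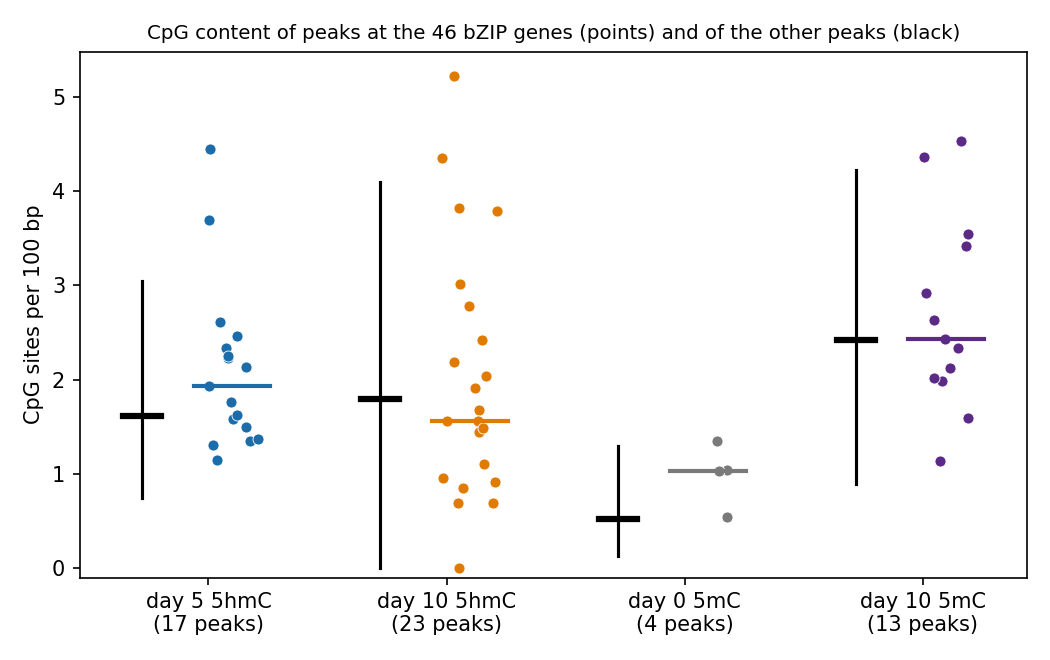
CpG sites per 100 bp (y axis) in each peak at the 46 genes (points, coloured line at their median) and in the other peaks of the same list (black, median with the 5th to 95th percentile), for the 4 lists. The day 5 5hmC peaks of Nfe2l2 (4.45) and Mafa (3.69) lie above the others at the set.

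5mC peaks were at 12 of the 46 genes (26.1%), against 17.4% of all genes. In the day 0 list, 3 genes (6.52%) had one, against 1.84% of all genes, and 1 (2.17%) in the gene itself, against 0.502%. In the day 10 list it was 11 genes (23.9%) against 15.9%, and 4 (8.7%) in the gene itself against 6.04%. The day 0 count rests on 4 peaks. Of these, 2 were at Atf7, a relative of ATF2, 1 in an intron and 1 44.9 kb downstream in Pcbp2. Another lay 13.7 kb downstream of Nfe2 in Cbx5, and the last was the one near Junb. These 4 peaks had 64.2% to 90.0% of their bases marked as repeat, as is usual in that list, where the other peaks had a median of 78.7%.

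At day 10 the Nfe2 gene had a 5mC peak over 1005 bp of coding sequence, chr15:103248432-103249705, with 31 CpG sites, the only 5mC peak of the set over coding sequence. Bach2 had 2 intronic 5mC peaks, chr4:32529291-32530232 and chr4:32530960-32532024, with 22 and 28 CpG sites. Atf6 had 1 in an intron and 1 40.4 kb upstream in Fcrlb, and Creb5 had 1 in an intron. The other day 10 5mC peaks lay 27.4 to 49.5 kb from Atf1, Atf4, Atf7, Xbp1, Maf, Nfe2l3 and Bach1, outside these genes. No gene of the Fos, C/EBP or PAR and NFIL3 groups, nor of the group of JDP2, BATF and ATF3, had a 5mC peak. Each of these groups has 4 or 5 genes, so a share like the 17.4% of all genes could not be told from 0.

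Both marks were at 5 genes, Atf4, Atf6, Bach2, Creb5 and Nfe2l3 (10.9%, against 7.37% of all genes). No 5hmC peak of the set overlapped a 5mC peak, and such an overlap was rare, at 0.251% of all genes. The closest pair was upstream of Atf4, where a day 10 5hmC and a day 10 5mC peak lay 2123 bp apart in Mgat3. In an intron of Atf6 the day 10 peaks of both marks lay 2277 bp apart. In Creb5 the gap was 9109 bp, between a day 5 5hmC and the 5mC peak. The gaps at Nfe2l3 and Bach2 were 89859 and 131138 bp. The least gap was thus 2123 to 9109 bp at Atf4, Atf6 and Creb5, and wider at Nfe2l3 and Bach2. At Creb5 it was the least of the gaps from 10 5hmC peaks. No gaps at other genes stand beside these, and the lists labelled day 10 of each mark may belong to different stages.

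Genes outside the set were counted for comparison. Of 8 other bZIP genes, 1 (Crebzf) had a 5hmC peak on each day and none a 5mC peak. Of 19 genes of partners and regulators, such as kinases of the JNK cascade, coactivators of CREB, KEAP1 and sensors of unfolded protein, 3 had a day 5 5hmC peak, 3 a day 10 5hmC peak, 0 a day 0 5mC peak and 3 a day 10 5mC peak. With so few genes these counts are near the shares of all genes, 14.0%, 20.6%, 1.84% and 15.9%.

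The rule's limit of 50 kb decided some memberships of the lists. Just inside it lay the 5mC peaks of Maf (49.5 kb) and Junb (47.5 kb) and a day 10 5hmC peak of Atf4 (46.5 kb), and just outside it 5hmC peaks of Dbp (55.4 kb), Batf (56.8 kb) and Atf2 (59.5 kb).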

How the data were processed

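ATDC5 DNA was enriched for 5mC with a methyl-CpG binding complex, or for 5hmC after a tagged sugar had been added to it. The authors aligned single-end reads with BWA to GRCm38 and called peaks with MACS 1.4.2, and the deposited tables give a chromosome, a start and an end for each peak, with a gene symbol for part of them. These positions are in base pairs, and no count, score or fold per peak was given, so the depth is unknown. A control, a threshold or a depth other than those used would change the number and the width of peaks. Empty rows (27818 and 25449) of the 5hmC tables were dropped. The input sample was not analysed here.

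Peaks were matched to GENCODE mouse release 21 by overlap of at least 1 bp with the gene and 50000 bp on either side. Strings were searched on both strands in the GRCm38.p6 sequence with Python 3.11.15, pandas 2.3.3 and pysam 0.24.0, after both steps had been tested on simulated data. No test across samples could be made, as each mark and day has a single list. The 46 genes and the gene lists were chosen with earlier results of these data known. All 46 genes were to be accounted for, and sequences were to be shown for 5hmC peaks in a gene or its 5000 bp upstream that hold a string, with promoters under a peak; for peaks with several strings a selection is shown. The whole day 10 peaks of Mafa, Creb5 and Jdp2 were chosen after their values were seen. Other settings were the window, the authors' symbol, the nearest gene, the peak midpoint, wide peaks alone, merged peaks, the overlap and the search of strings.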

Additional observations from a re-analysis of the deposited data

How the results depend on the processing

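Of 78 values under other settings, 43 moved by less than 1.5 times for counts or stayed in the interval for shares, and 35 moved more. Each count follows from how much is counted as the gene, in the order day 5 5hmC, day 10 5hmC, day 0 5mC and day 10 5mC. With the gene body alone, 5, 5, 1 and 4 genes had a peak (main counts 15, 13, 3 and 11), with 7, 12, 1 and 5 peaks (main counts 17, 23, 4 and 13). With 5000 bp on either side, 7, 7, 1 and 4 genes had a peak, and the day 5 5hmC, day 0 5mC and day 10 5mC lists had 9, 1 and 5 peaks. With 100000 bp, 24 genes had a day 10 5hmC peak, and there were 26 day 5 5hmC and 20 day 10 5mC peaks. By the authors' symbol alone, 6, 5, 1 and 3 genes had 6, 5, 1 and 4 peaks. When each peak went to its nearest gene, 1 gene had 1 day 0 5mC peak and 7 genes had a day 10 5mC peak. With peaks of at least the median width, 3 genes had 5 day 10 5hmC peaks and 6 had 6 day 10 5mC peaks.

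With an overlap of at least 50% of each peak required, the overlap between days was 0% on both days, since day 10 peaks are narrower. The AP-1 share at day 5 was 17.6% in a window of 200 bp in all, centred on the midpoint. It was 29.4% when bases marked as repeat were left out, and 44.4% for peaks within 5000 bp of a gene. Leaving out Creb5, added after seeing the data, moved no count past 1.5 times. No paired analysis was possible because each mark and day has 1 list, in which the samples were merged. Depth, the control of the peak calling and the days as labelled limit all counts, and an absent peak does not show an absent mark.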
